A study of Mus musculus with 4 samples.

Results

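The genes described here encode the enzymes and transporters that carry glucose through glycolysis to pyruvate and lactate, pass pyruvate to the mitochondria or divert glucose 6-phosphate into the pentose phosphate pathway. Their RNA was measured in mouse leukemic cells on Affymetrix whole-genome mouse expression arrays, on which each transcript is read by 1 or more probe sets. The list held 36 genes, and a gene entered through the probe sets whose only symbol in the platform's annotation was that gene. Of the 36, 31 had such a probe set outside the array controls, and 30 of these lay above the intensity filter and were tested, among 13928 genes tested in all. In probe sets, 71 belonged to these genes and 65 passed the filter, of 25580 tested.

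The study compared 2 samples of wild-type (WT) leukemic cells with 2 samples labelled Ezh2 KO, 4 arrays in all. Both kinds of cell carried the MLL-AF9 leukemic fusion gene and were isolated from marrow of transplanted C57BL/6 recipients. Ezh2 is the methyltransferase of the Polycomb complex PRC2, and the series' design text gives the knockout cells as Ezh2-/-. The labels are at odds on the knockout group: the genotype entry names Ezh2 KO, while another entry says the recipients were repopulated with Ink4a-/-Arf-/- bone marrow cells, against wild-type cells in the WT group. No age, Cre driver or number of independent leukemias is given, and no label says whether samples of one group stem from different mice. The p-values therefore rest on the spread between these arrays alone, and that spread may be technical. RNA equivalent to 10000 cells was labelled for each array.

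Log2 intensities correlated at 0.985 within each group and at 0.976 to 0.978 between groups, across the genes tested, which are not independent replicates. For actin, the control probe set at the 3-prime end was 1.21 to 1.26 times as bright as the one at the 5-prime end. The same ratio for the Gapdh control probe sets was 0.74 to 0.80. The single probe set of Ezh2 read 5216 and 5315 in the WT samples and 4989 and 4991 in the Ezh2 KO samples (log2 change -0.08, SE 0.06, limma adjusted p = 0.488). Its position relative to the deletion was not analysed here, so this value does not check the labels. The 11 tested markers of myeloid leukemic cells ranged from Cd34, a progenitor surface protein, at 318 to 369, to brighter ones such as Mpo, the myeloperoxidase of primary granules, at 32222 to 36399. Of these, the integrin Itgam was higher in Ezh2 KO cells, and the Fc receptor gene Fcgr3 and the granule protease gene Ctsg were lower. Of 30 markers of B cells, erythroid cells, T and NK cells, stroma and endothelium that had a probe set, 11 lay below the filter. Of all 13928 genes tested, 3476 had an unadjusted p under 0.05 in limma. Of the 19 markers tested, 1 did, and none had an adjusted p under 0.05. Their summed intensities on the WT and Ezh2 KO arrays were 863 to 916 and 926 to 1015 for B cells, 228 to 264 and 230 to 280 for erythroid cells, 261 to 489 and 245 to 358 for T and NK cells, and 594 to 647 and 512 to 594 for stroma and endothelium. No marker was listed at 0. The part of the shifts in Itgam, Fcgr3 and Ctsg in the results below was not tested. In RNA from a mixed sample, fewer cells of a type and less RNA per cell cannot be told apart.

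Glycolysis splits a molecule of glucose into pyruvate in the cytosol, with hexokinase, phosphofructokinase and pyruvate kinase as its regulated steps. Lactate dehydrogenase turns pyruvate into lactate, which leaves the cell through monocarboxylate transporters, while pyruvate dehydrogenase feeds it to the mitochondria unless a pyruvate dehydrogenase kinase inactivates it. The pentose phosphate pathway branches off after hexokinase and yields NADPH and ribose for nucleotides. Proliferating leukemic cells are known for high glycolytic flux, and neutrophils use NADPH for their oxidase.

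Between the groups, 7 of the 30 tested genes changed at a limma adjusted p under 0.05, adjusted over all genes. In the Ezh2 KO cells the glucose transporter gene Slc2a3 and the regulatory enzyme gene Pfkfb4 were higher. Hk3, Pfkl, Pfkp, Pkm and Slc16a1, which encode a hexokinase, 2 phosphofructokinases, pyruvate kinase and a lactate transporter, were lower. That is 23.3% of the list, against 11.8% of all genes tested (5.63% higher and 6.14% lower). The list was brighter than most genes, with a median intensity of 2208 against 406, and bright genes were called more often. Among genes with a mean intensity above 1000, 4 of 20 listed genes changed (20%), against 20.6% of all such genes. By direction, 0 of the 20 were higher, against 9.33%, and 4 were lower, against 11.3%. Above 1000 the share called in either direction was thus close to the background, with all 4 calls lower. The other called genes, Slc2a3, Pfkfb4 and Pfkl, had mean intensities of 967, 636 and 318. No background share was computed here for genes below 1000, so the comparison by brightness does not cover these genes. The groups of arrays did not overlap for 20 of the 30 genes (66.7%), against 52.5% of all genes. Among the 20 listed genes above 1000 they did not overlap for 13 (65.0%), against 65.2% of all such genes.

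The changes were small. Slc2a3 alone reached 2-fold, while 3.84% of all genes did, and the median absolute log2 change was 0.17 for the list and 0.20 for all genes. The median signed log2 change was 0.05 for the list and 0.006 for all genes, with 16 listed genes above 0 and 14 below, where 50.8% of all genes lay above 0. Centring each array on its median lowers every log2 change by the same amount. It moved the list's median to -0.05 and that of all genes to -0.09. The list's median also fell below 0, to -0.025, when all probe sets of each gene were averaged, so its sign depended on the setting. Within a group the listed genes differed between arrays by a median of 0.10 log2 units in WT and 0.09 in Ezh2 KO, and between groups by 0.15 to 0.25. The corresponding values for all genes were 0.15 and 0.14 within groups and 0.22 to 0.24 between them.

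**Figure D1:**
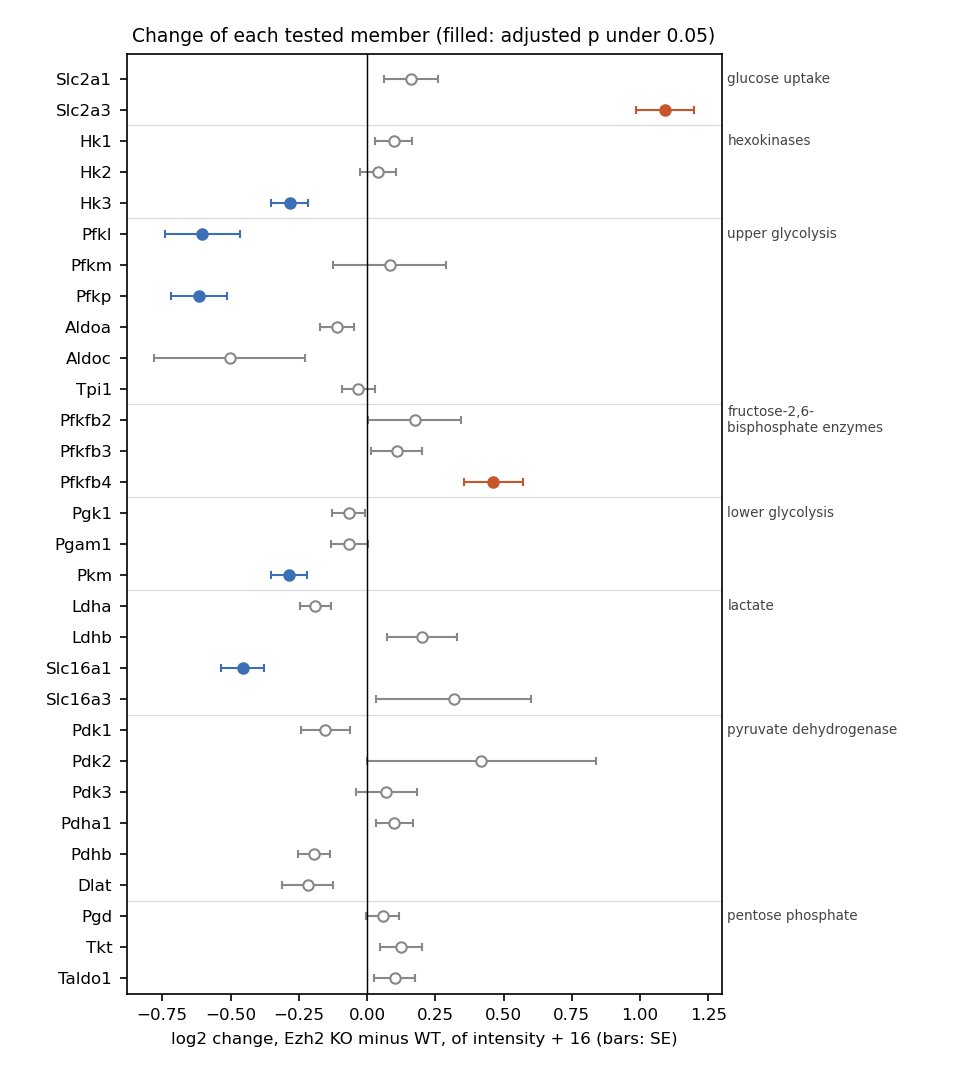
Log2 change of intensity plus 16 (Ezh2 KO minus WT, horizontal axis) with its SE for the 30 tested genes, ordered by step of the pathway; filled points have an adjusted p under 0.05, orange higher and blue lower in Ezh2 KO. Slc2a3 stands at 1.09, Pfkfb4 at 0.46, and the 5 lower genes between -0.61 and -0.28.

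Slc2a3 encodes GLUT3, a transporter with high affinity for glucose. It read 656 and 567 on the WT arrays and 1414 and 1231 on the Ezh2 KO arrays. Both Ezh2 KO values lay well above both WT values, a 2.13-fold rise (log2 change 1.09, SE 0.11, limma adjusted p = 0.000156). A second probe set of the gene rose 2.75-fold, from 171 and 177 to 483 and 534 (log2 change 1.46, SE 0.14, adjusted p = 0.000325 among all probe sets). The other two probe sets of Slc2a3 had mean intensities of 18.3 and 13.3, below the filter of 21.9. Slc2a3 kept its call in every alternative setting apart from a single prior variance, under which limma called no gene at all.

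Slc2a1, which encodes GLUT1, the basal glucose transporter of most cells, read 673 and 748 in WT and 771 and 819 in Ezh2 KO. The groups did not overlap, but the difference did not pass the test (log2 change 0.16, SE 0.10, limma adjusted p = 0.364). Its 95% interval ran from -0.06 to 0.38, so a change of the size seen for Slc2a3 lies outside it. The difference between the changes of Slc2a3 and Slc2a1 was not tested.

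Hexokinases phosphorylate glucose and so trap it in the cell. Hk3, the form found mainly in myeloid cells, read 13309 and 14182 in WT and 11784 and 10812 in Ezh2 KO. The Ezh2 KO values were lower without overlap (1.22-fold, log2 change -0.28, SE 0.07, limma adjusted p = 0.0230). Its other probe set, at 5496 and 5027 in WT and 5003 and 4789 in Ezh2 KO, also ran lower without overlap but did not pass (log2 change -0.10, SE 0.07, adjusted p = 0.451). The call of Hk3 was lost without either WT replicate (adjusted p = 0.0510 and 0.123), without Ezh2 KO replicate 2 (0.0639), with no filter (0.0660) and with the mean of its probe sets (-0.19, 0.0915).

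Hk1 and Hk2, the hexokinases that bind mitochondria, did not pass. Hk1 read 2197 and 2144 in WT and 2307 and 2339 in Ezh2 KO (log2 change 0.10, 95% interval -0.05 to 0.25). Hk2 read 2800 and 2831 in WT and 2809 and 2985 in Ezh2 KO, with overlapping groups (log2 change 0.04, 95% interval -0.11 to 0.19).

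Phosphofructokinase commits sugar to glycolysis and exists as liver (Pfkl), muscle (Pfkm) and platelet (Pfkp) forms. Pfkp fell 1.53-fold, from 1572 and 1604 in WT to 926 and 1150 in Ezh2 KO (log2 change -0.61, SE 0.10, limma adjusted p = 0.00393), and it passed without each array in turn. The Ezh2 KO samples were both below the WT samples and differed between themselves more than the WT samples did. Pfkl fell 1.52-fold on its brightest probe set, from 406 and 369 to 254 and 245 (log2 change -0.60, SE 0.14, limma adjusted p = 0.0203). Pfkm, at 181 and 136 in WT and 167 and 168 in Ezh2 KO, did not pass (log2 change 0.08, 95% interval -0.38 to 0.54).

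The probe sets of Pfkl and Pfkp did not all move alike. A second Pfkl probe set, nearly as bright as the first, read 316 and 319 in WT and 314 and 280 in Ezh2 KO (log2 change -0.09, SE 0.14, adjusted p = 0.770). The third Pfkl probe set read 150 and 113 in WT and 195 and 175 in Ezh2 KO, the opposite direction (log2 change 0.46, SE 0.21, adjusted p = 0.243). For Pfkp the further probe sets were dim, at mean intensities of 152 and 60.5, with log2 changes of -0.19 and 0.20. Averaging all probe sets of each gene reduced the log2 change to -0.08 for Pfkl (limma adjusted p = 0.812) and to -0.20 for Pfkp (0.539). Pfkl also lost its call without WT replicate 1 (0.112) or 2 (0.0518) and with no filter (0.0521). Where the probes lie along these transcripts was not analysed here.

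**Figure D2:**
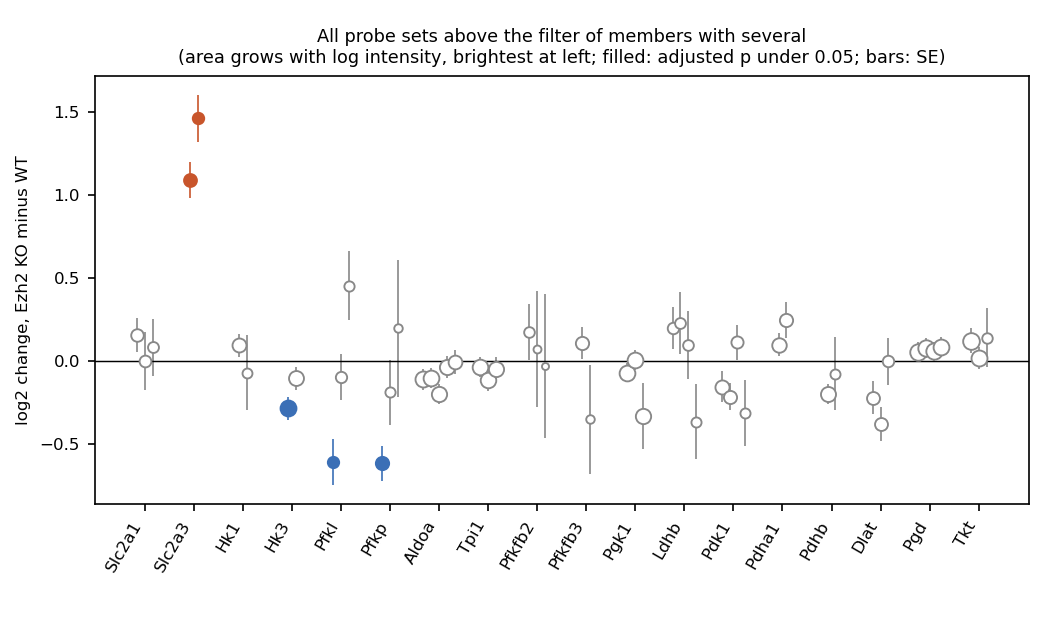
Log2 change (Ezh2 KO minus WT, vertical axis) with SE of every probe set above the filter for the 18 genes that have several, brightest at left within a gene, with larger points for brighter probe sets and filled points for an adjusted p under 0.05. Both Slc2a3 probe sets are filled and high, whereas only 1 of 3 is filled for Pfkl and for Pfkp and the third lies above 0.

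The Pfkfb enzymes make and degrade a fructose bisphosphate that activates phosphofructokinase. Pfkfb4 rose 1.38-fold on its only probe set, from 541 and 522 in WT to 687 and 793 in Ezh2 KO (log2 change 0.46, SE 0.11, limma adjusted p = 0.0218). Both Ezh2 KO samples lay above both WT samples. The call was lost without WT replicate 1 (0.0716) or 2 (0.0877), without Ezh2 KO replicate 2 (0.126) and with median centring (0.0942). Pfkfb3, the inducible form of proliferating cells, read 1112 and 1305 in WT and 1312 and 1287 in Ezh2 KO, with overlapping groups (log2 change 0.11, SE 0.09, adjusted p = 0.536). Pfkfb2 read 203 and 183 in WT and 211 and 229 in Ezh2 KO, and did not pass (log2 change 0.17, SE 0.17, adjusted p = 0.604). Pfkfb1 has no probe set of its own symbol here.

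Aldoa, the aldolase of most tissues, read 13681 and 13958 in WT and 13246 and 12395 in Ezh2 KO (log2 change -0.11, SE 0.06, limma adjusted p = 0.321). All 5 of its probe sets had a log2 change below 0, from -0.20 to -0.005, and 0 of them passed. Aldoc, the brain form, was dim, at 127 and 93.6 in WT and 65.8 and 79.1 in Ezh2 KO, and did not pass (log2 change -0.50, SE 0.28, adjusted p = 0.305). Tpi1 read 10040 and 9595 in WT and 9610 and 9592 in Ezh2 KO, with a 95% interval of -0.16 to 0.10 around a log2 change of -0.03. Gpi1, the isomerase between hexokinase and phosphofructokinase, has no probe set of its own symbol here.

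Pkm, pyruvate kinase, which makes pyruvate and ATP, fell 1.22-fold from 4111 and 4416 in WT to 3527 and 3458 in Ezh2 KO. The groups did not overlap and the difference passed (log2 change -0.29, SE 0.07, limma adjusted p = 0.0204), but not without WT replicate 2 (0.113). The gene was read by 1 probe set, and its splice forms M1 and M2 were not told apart here. Pgk1, phosphoglycerate kinase, read 11329 and 10953 in WT and 10795 and 10469 in Ezh2 KO (log2 change -0.07, 95% interval -0.20 to 0.07). A further Pgk1 probe set was low on 1 Ezh2 KO array only, at 4663 against 8096 on the other, with 7114 and 8361 in WT. Pgam1, phosphoglycerate mutase, read 13635 and 15035 in WT and 13534 and 13847 in Ezh2 KO (log2 change -0.06, 95% interval -0.21 to 0.08). Pgk1 and Pgam1 have processed copies in the mouse genome, and signal from those copies cannot be separated here. Whether probe sets of the other genes, those of Hk3 and Slc2a3 included, also read other transcripts was not analysed.

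Gapdh carried its symbol alone only on the array's control probe sets, which were kept out of the main comparison. The brightest of these read 26292 and 24976 in WT and 26414 and 24080 in Ezh2 KO. Entered into the fit afterwards, it had a log2 change of -0.02 (95% interval -0.17 to 0.13, limma adjusted p = 0.882), and the other Gapdh control probe sets had -0.08 and -0.06. Eno2, the neuronal enolase, lay below the filter at 5.87 and 2.09 in WT and 27.4 and 12.1 in Ezh2 KO, and was not tested. Eno1 has no probe set of its own symbol here.

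Slc16a1 encodes MCT1, a monocarboxylate transporter that moves lactate and pyruvate across the cell membrane. It fell 1.37-fold, from 2507 and 2511 in WT to 1939 and 1717 in Ezh2 KO (log2 change -0.46, SE 0.08, limma adjusted p = 0.00431). The WT arrays were nearly equal and both Ezh2 KO arrays lay below them. The call stood without any one array; averaging it with its second probe set, which had a mean of 7.63 and lay below the filter, gave -0.36 (adjusted p = 0.268). Slc16a3, which encodes the lactate exporter MCT4, was dim and overlapped between groups, at 87.2 and 77.6 in WT and 132 and 85.2 in Ezh2 KO (log2 change 0.32, SE 0.28, adjusted p = 0.557).

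Ldha, the lactate dehydrogenase subunit that favours lactate formation, came near the threshold without passing. It read 12482 and 12366 in WT and 10851 and 10941 in Ezh2 KO (log2 change -0.19, SE 0.06, limma adjusted p = 0.0629). The groups were well separated relative to their spread, and the 95% interval of the change ran from -0.32 to -0.06. Ldhb, the subunit of oxidative tissues, read 339 and 317 in WT and 382 and 376 in Ezh2 KO on its brightest probe set (log2 change 0.20, SE 0.13, adjusted p = 0.389). Of its 4 probe sets 3 had a log2 change above 0 and 1 below.

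**Figure D3:**
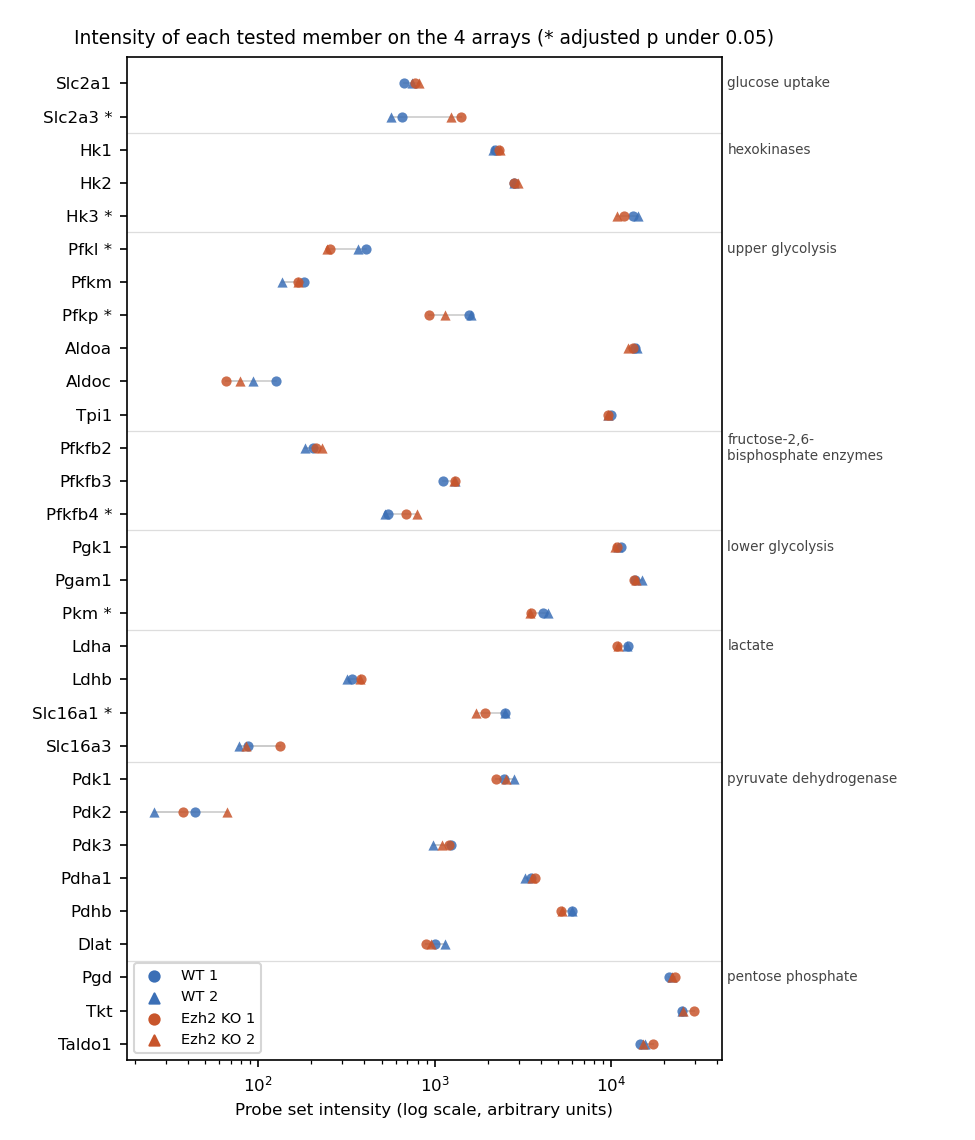
Intensity on each of the 4 arrays (logarithmic horizontal axis) for the probe set that stands for each of the 30 tested genes, WT in blue and Ezh2 KO in orange, with circles for replicate 1 and triangles for replicate 2; an asterisk marks an adjusted p under 0.05. For Slc2a3 the WT samples sit at 567 and 656 and the Ezh2 KO samples at 1231 and 1414, while for most enzymes the 4 points nearly coincide.

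At the pyruvate dehydrogenase step, no gene had an adjusted p under 0.05 in limma among 6 tested. Of the 6, 2 had an unadjusted p under 0.05, against 3476 of all 13928 genes tested. Pdhb, the beta subunit of the E1 component, came nearest, at 6008 and 6016 in WT and 5228 and 5269 in Ezh2 KO (log2 change -0.20, SE 0.06, adjusted p = 0.0613). Dlat, the E2 component, read 1010 and 1145 in WT and 889 and 958 in Ezh2 KO (log2 change -0.22, SE 0.09, adjusted p = 0.185), and a second probe set came nearer (log2 change -0.38, SE 0.10, adjusted p = 0.0543). Pdha1, the E1 alpha subunit, ran the other way, at 3504 and 3256 in WT and 3701 and 3543 in Ezh2 KO (log2 change 0.10, SE 0.07, adjusted p = 0.417). Its other probe set had a log2 change of 0.25 (adjusted p = 0.212). The values of Pdhb and Pdha1 thus did not share a direction.

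The kinases that switch this complex off did not pass either. Pdk1, a HIF target in many cells, read 2467 and 2827 in WT and 2214 and 2543 in Ezh2 KO, with overlapping groups (log2 change -0.15, SE 0.09, limma adjusted p = 0.341). Its 4 probe sets had log2 changes from -0.31 to 0.11. Pdk3 read 1234 and 976 in WT and 1205 and 1104 in Ezh2 KO (log2 change 0.07, SE 0.11, adjusted p = 0.771). Pdk2 was close to the filter, at 43.7 and 25.6 in WT and 37.6 and 66.7 in Ezh2 KO (log2 change 0.42, SE 0.42, adjusted p = 0.613).

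The 3 tested enzymes of the pentose phosphate pathway were among the brightest probe sets and changed little. In limma 0 of them passed, and 0 had an unadjusted p under 0.05, against 3476 of all 13928 genes tested. Pgd, which makes NADPH by oxidising phosphogluconate, read 21268 and 22019 in WT and 22922 and 22130 in Ezh2 KO (log2 change 0.06, 95% interval -0.08 to 0.19). Its 4 probe sets had log2 changes of 0.06 to 0.09. Tkt, transketolase, read 25377 and 25074 in WT and 29693 and 25451 in Ezh2 KO, so that 1 Ezh2 KO array carried the difference (log2 change 0.12, 95% interval -0.05 to 0.30). Without Ezh2 KO replicate 2 its log2 change was 0.24 (limma adjusted p = 0.0413). Taldo1, transaldolase, read 14620 and 15532 in WT and 17247 and 15142 in Ezh2 KO, with overlapping groups (log2 change 0.10, 95% interval -0.06 to 0.27). G6pdx, the first enzyme of the pathway, has no probe set of its own symbol here.

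Of the 18 genes with several probe sets above the filter, all probe sets of 10 had a log2 change of one sign, and those of 8 lay on both sides of 0. Over single probe sets 3 were higher and 5 lower, 12.3% of the 65, against 7.98% of all probe sets (4.08% higher and 3.91% lower). The 65 were brighter, with a median intensity of 1145 against 259, and these shares were not matched for brightness.

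Promoter sequences are shown for 4 of these genes, as a view of regulatory letters near genes that rose (Pfkfb4), fell (Pfkp, Slc16a1) or came near the threshold (Ldha). They are the 250 bases before the annotated start, 5′ to 3′ on the gene's strand, from RefSeq on GRCm38.p6; capitals mark ACGTG or GCGTG on either strand, the core letters bound by hypoxia-inducible factors, of which ACGTG is also part of the E-box CACGTG bound by Myc. The windows are chr9:108991652-108991901 on the plus strand for Pfkfb4, chr13:6648772-6649021 on the minus strand for Pfkp, chr3:104638414-104638663 on the plus strand for Slc16a1 and chr7:46845554-46845803 on the plus strand for the upstream start of Ldha.
Pfkfb4: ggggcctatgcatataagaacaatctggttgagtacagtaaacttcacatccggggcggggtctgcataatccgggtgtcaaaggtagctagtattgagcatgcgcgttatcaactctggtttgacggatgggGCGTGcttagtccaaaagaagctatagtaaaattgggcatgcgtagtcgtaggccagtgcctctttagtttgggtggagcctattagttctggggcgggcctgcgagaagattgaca
Pfkp: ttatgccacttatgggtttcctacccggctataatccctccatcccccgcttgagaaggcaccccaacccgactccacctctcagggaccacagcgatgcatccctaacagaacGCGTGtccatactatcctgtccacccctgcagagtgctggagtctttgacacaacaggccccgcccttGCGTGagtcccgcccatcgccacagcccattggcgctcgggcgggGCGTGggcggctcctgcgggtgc
Slc16a1: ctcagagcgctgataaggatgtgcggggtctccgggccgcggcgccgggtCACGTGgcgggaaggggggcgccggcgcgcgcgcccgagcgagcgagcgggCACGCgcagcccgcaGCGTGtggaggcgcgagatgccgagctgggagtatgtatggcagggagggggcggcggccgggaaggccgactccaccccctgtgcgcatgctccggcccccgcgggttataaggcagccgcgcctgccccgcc
Ldha: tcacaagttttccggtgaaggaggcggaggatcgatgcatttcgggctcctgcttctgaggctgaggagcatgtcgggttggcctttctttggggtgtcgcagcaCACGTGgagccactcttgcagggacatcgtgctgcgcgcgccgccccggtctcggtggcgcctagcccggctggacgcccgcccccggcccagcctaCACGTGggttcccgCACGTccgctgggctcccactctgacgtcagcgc

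The Ldha window shown held 5 matches to ACGTG and 0 to GCGTG, with CACGTG at 2 places, where both strands match. The window of the other Ldha start, at chr7:46846832-46847081, held 1 match to GCGTG and 0 to ACGTG. Slc16a1 had 2 of each core and CACGTG at 1 place, Pfkp 3 matches to GCGTG, and Pfkfb4 1 match to GCGTG. The RefSeq table held 55 windows for 35 of the 36 genes. Slc2a3, the gene with the largest change, had no window and is not covered by these counts. One or both cores were present in 41 of these windows (74.5%), against 38.6% of all 32851 windows. CACGTG was present in 6 (10.9%), against 6.02% of all. A match describes letters only, and windows of one gene can share sequence. Both cores contain the letters CG, and the windows compared were not matched on base composition.

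Related genes of glucose metabolism and its control, from 6 further lists chosen by function, were read out of the same fit. Together 16 of 96 tested genes changed (16.7%), 6 higher and 10 lower, against 11.8% of all genes (5.63% higher and 6.14% lower). Their median log2 change was -0.04 and their median intensity 684, against 406 for all genes, and brighter genes were called more often. The shares of all genes set beside single lists below were not matched for brightness. Of 20 further isozymes and transporters tested, 0 were higher and 1 lower: Bpgm, which makes the bisphosphoglycerate that lowers haemoglobin's oxygen affinity, fell from 405 and 454 in WT to 297 and 260 in Ezh2 KO (log2 change -0.60, SE 0.14, limma adjusted p = 0.0215). It did not pass without WT replicate 1 (0.0521), WT replicate 2 (0.116) or Ezh2 KO replicate 2 (0.0629), or with no filter (0.0539).

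The gluconeogenesis list had 2 lower and 0 higher of 9 tested, against 6.14% lower and 5.63% higher of all genes. Fbp1, fructose bisphosphatase, which runs the phosphofructokinase step in reverse, fell 1.85-fold from 1348 and 1383 in WT to 747 and 716 in Ezh2 KO (log2 change -0.89, SE 0.08, limma adjusted p = 0.000128). G6pc3, a widely expressed glucose 6-phosphatase subunit, fell from 1016 and 957 to 644 and 822 (log2 change -0.43, SE 0.12, adjusted p = 0.0422). The call of G6pc3 was lost without WT replicate 1 or 2 or Ezh2 KO replicate 1, and with no filter (0.0838). G6pc3 has a single probe set, so averaging over probe sets left its log2 change at -0.43, but its adjusted p in that fit was 0.0761. Fbp1 kept its call without each array.

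Among 21 further pentose phosphate and branch enzymes, 2 were higher and 2 lower, against 5.63% and 6.14% of all genes. Both lower genes belong to serine synthesis, which leaves glycolysis at phosphoglycerate. Psat1, its aminotransferase, fell 1.80-fold from 3829 and 3723 in WT to 1933 and 2259 in Ezh2 KO (log2 change -0.85, SE 0.08, limma adjusted p = 0.000146). Phgdh, its first enzyme, fell from 249.8 and 250.4 in WT to 148 and 144 in Ezh2 KO (log2 change -0.72, SE 0.17, adjusted p = 0.0250). That call was lost without WT replicate 1 (0.0978), WT replicate 2 (0.0942) or Ezh2 KO replicate 2 (0.0533), with no filter (0.0758) and with the mean of its probe sets (0.0732). The higher genes were Pygl, a glycogen phosphorylase (log2 change 0.33, SE 0.07, adjusted p = 0.0108), and Gpd2, the mitochondrial glycerol phosphate dehydrogenase (log2 change 0.30, SE 0.07, adjusted p = 0.0147). Median centring ended both calls (0.183 and 0.253). Pygl also lost its call without either WT replicate (0.0534 and 0.0601), and Gpd2 without WT replicate 1 (0.0865) and with the mean of its probe sets (0.110).

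For pyruvate entry into mitochondria, 0 of 9 tested genes passed in limma. An unadjusted p under 0.05 was found for 1 of them, against 3476 of all 13928 genes tested. Citrate synthase, Cs, read 6435 and 6575 in WT and 5430 and 5825 in Ezh2 KO (log2 change -0.21, SE 0.06, adjusted p = 0.0614). The pyruvate carrier gene Mpc1 read 4749 and 4392 in WT and 4318 and 4278 in Ezh2 KO (log2 change -0.09, SE 0.07, adjusted p = 0.470).

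**Figure D4:**
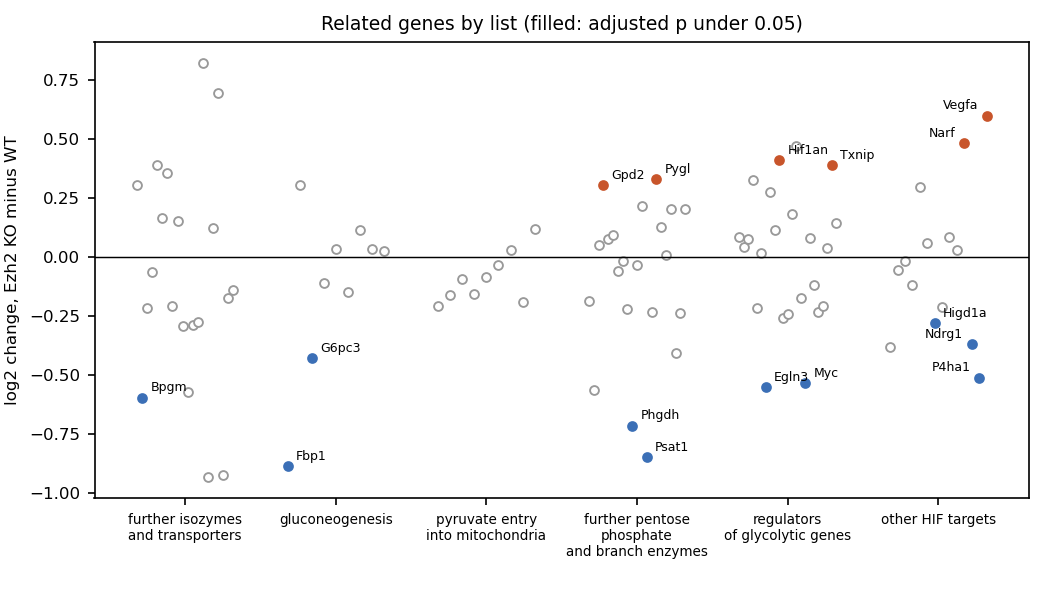
Log2 change (Ezh2 KO minus WT, vertical axis) of the 96 tested genes of 6 related lists, each point a gene, filled and named where the adjusted p was under 0.05 (orange higher, blue lower in Ezh2 KO). The lowest named points are Fbp1 at -0.89 and Psat1 at -0.85, and the highest is Vegfa at 0.60.

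Regulators of glycolytic genes had 2 higher and 2 lower of 23 tested, against 5.63% higher and 6.14% lower of all genes. Myc, a transcription factor that binds many glycolytic promoters, fell from 3265 and 3300 in WT to 2309 and 2214 in Ezh2 KO (log2 change -0.53, SE 0.07, limma adjusted p = 0.000700). Egln3, an oxygen-sensing prolyl hydroxylase, fell from 569 and 480 to 325 and 380 (log2 change -0.55, SE 0.14, adjusted p = 0.0274). Txnip, which restrains glucose uptake, rose from 1641 and 1428 to 1849 and 2185 (log2 change 0.39, SE 0.10, adjusted p = 0.0306). Hif1an, an asparagine hydroxylase that inhibits HIF, rose from 456 and 459 to 637 and 589 on its brightest probe set (log2 change 0.41, SE 0.11, adjusted p = 0.0361), but averaging its probe sets gave -0.19 (0.697). Of these 4 genes, Myc alone kept its call in each setting other than the single prior variance. Left-out arrays ended the call of Egln3 for WT replicate 1 (0.162) and Ezh2 KO replicate 1 (0.0759), and that of Txnip for WT replicate 2 (0.165) and Ezh2 KO replicate 2 (0.0904). Both also lost it with no filter (0.0633 for Egln3 and 0.0675 for Txnip) and with the mean of their probe sets (0.439 and 0.0681), and Txnip with median centring (0.123). Hif1an did not pass without WT replicate 1 (0.113), WT replicate 2 (0.0993) or Ezh2 KO replicate 1 (0.181), nor with quantile normalization (0.0551), median centring (0.161) or no filter (0.0604).

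Other HIF targets moved in both directions, with 2 higher and 3 lower of 14 tested, against 5.63% higher and 6.14% lower of all genes. Vegfa, the vascular growth factor, rose 1.51-fold from 1128 and 1163 in WT to 1702 and 1784 in Ezh2 KO (log2 change 0.60, SE 0.08, limma adjusted p = 0.000854). Narf also rose (log2 change 0.48, SE 0.10, adjusted p = 0.0102). P4ha1, a collagen prolyl hydroxylase subunit, fell (log2 change -0.51, SE 0.13, adjusted p = 0.0282), as did Ndrg1 (log2 change -0.37, SE 0.09, adjusted p = 0.0247). Averaged over their probe sets, Narf, P4ha1 and Ndrg1 no longer passed (0.485, 0.191 and 0.845). Without 1 array, Narf lost its call for WT replicate 1 (0.0696), and P4ha1 and Ndrg1 for either WT replicate or Ezh2 KO replicate 2 (0.0780 to 0.111 and 0.0652 to 0.103). Narf did not pass with median centring (0.0652), nor P4ha1 with no filter (0.0615).

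**Figure D5:**
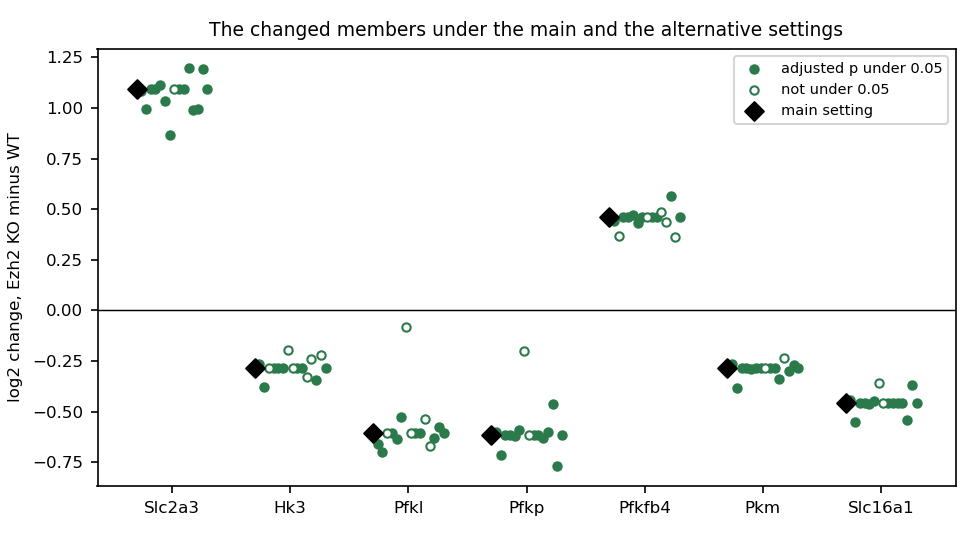
Log2 change (Ezh2 KO minus WT, vertical axis) of the 7 changed genes under the main setting (black diamonds) and the alternatives (circles, filled where the adjusted p was under 0.05). No point changes sign; the open points of Pfkl at -0.08 and Pfkp at -0.20 are the averages over their probe sets.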

How the data were processed

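The deposited values were probe set intensities on a linear scale from 4 1-colour arrays. Expression Console made them, as the submitters' processing notes name it; its version and summary algorithm are not given in the sources used here. Each deposited array had a mean of 500.003 after trimming 2% at each end, so the authors' scaling hides any difference in total mRNA per cell.

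Of 45101 probe sets, 64 controls were left out, 34945 named 1 symbol, 932 more than 1, and 9160 had no entry in the annotation; 34741 matched RefSeq (GRCm38.p6) by gene identifier. The brightest probe set by mean stood for each of 18193 genes, of which 13928 exceeded the 30th percentile of probe sets (21.9) and entered the test, without use of detection calls. Values were tested as log2(intensity + 16), which understates changes of dim genes, with lmFit and eBayes of limma 3.58.1 (R 4.3.3), a prior variance that follows intensity, and Benjamini-Hochberg adjustment at 0.05 over all genes. The prior raised the 2 residual degrees of freedom per gene to a median of 9.93. A further fit took each probe set on its own.

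Each listed gene is accounted for, and every changed one is given per array; from each related list up to 4 changed genes of largest change are named, or the 2 brightest where none changed. The genes and lists were chosen with earlier results of these data known. The alternatives were other normalizations, filters, pseudocounts, probe set rules and priors, a replicate block, and leaving out each array; Gapdh's control probe set was added after seeing the data. On 20 simulated data sets of 13928 genes for this comparison, with 200 changed, the test recovered 30.8% of log2 changes of 0.5, 60.7% of 1 and 78.7% of 2. Of its calls there, 5.18% were false. The data themselves gave 1639 called genes, so recovery in them may differ from that with 200 changed genes. Recovery is not given separately for the listed genes, which were brighter than most. Figures were drawn with matplotlib 3.10.9 under Python 3.11.15.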

Additional observations from a re-analysis of the deposited data

How the results depend on the processing

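The number of arrays limits every value, and leaving out 1 array leaves a lone sample that is assumed to vary like the other group. Of 449 comparisons of a listed gene with its main result, 411 kept direction and side of the threshold, 23 lost the call, 4 gained one and 11 reversed; for the named related genes and Ezh2, 204 of 270 were kept, 62 lost, 3 gained and 1 reversed. The cause of these changes was not tested. With a single prior variance 0 genes passed in either direction, listed and related genes and probe sets included.

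Median centring left 1 listed gene higher, 1 related gene higher, and 412 genes higher against 1070 lower in all (784 and 855 in the main setting). It reversed the list's median log2 change to -0.048, Hk2 to -0.057, Pfkm to -0.014, Pdk3 to -0.027 and Pgd to -0.039, none called. This scaling lowers the log2 change of every gene by the same amount, so these signs say nothing particular to these genes. Quantile normalization gave a list median of 0.027. Without a filter 3 listed genes, 4 related genes and 2 probe sets of listed genes were lower, with 599 genes lower in all. With the mean of all probe sets, 1 listed gene was lower, 3 related genes were higher and 4 lower, and 452 genes were higher and 511 lower in all. That setting reversed the list's median to -0.025, Pfkfb3 to -0.12 and Hif1an to -0.19.

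Leaving out 1 array at a time gave 1 to 2 listed genes higher and 2 to 5 lower, 2 to 3 and 2 to 6 of their probe sets, 2 to 5 and 3 to 9 related genes, and 511 to 735 and 397 to 906 genes in all; the list's median ran from -0.025 to 0.039. Over these fits 6 uncalled genes reversed in sign: the log2 change of Hk2 ran from -0.0034 to 0.084, that of Pfkm from -0.10 to 0.27, that of Tpi1 from -0.064 to 0.0010, that of Pfkfb3 from -0.0057 to 0.22, that of Pgam1 from -0.14 to 0.0057 and that of Pdk3 from -0.096 to 0.24.

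The labels do not say that replicate numbers pair the samples, and same-numbered deviations correlated at 0.04 over genes. With the replicate number as a block, 2 listed genes were higher and 7 lower, Ldha (limma adjusted p = 0.0190) and Pdhb (0.0184) being added; 10 of their probe sets were lower, and 1299 genes were higher and 1452 lower in all.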
